A study of Homo sapiens with 6 samples.

Results

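The clustered protocadherin genes were examined in ChIP-seq peak lists of MDA-MB-231, a cell line established from human triple-negative breast cancer. Members were the protein-coding genes of GENCODE release 44 on chromosome 5 whose symbols begin PCDHA, PCDHB or PCDHG followed by a member number or the letters of a subfamily. This symbol rule used no measured value, but the gene set was chosen with earlier results of these data known. The rule found 53 genes of 19970 protein-coding genes on the autosomes and X, 15 in the alpha cluster, 16 in the beta cluster and 22 in the gamma cluster. The clusters followed each other on the plus strand within 727 kb, with alpha at chr5:140786136-141012347, beta at chr5:141051374-141249365 and gamma at chr5:141330514-141512977 (GRCh38).

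Protocadherins of these clusters are cell surface proteins of the cadherin superfamily, best known in neurons, where each cell expresses its own few and homophilic binding between matching sets lets a neuron recognise its own branches. Every alpha and gamma gene begins with a large variable exon behind its own promoter, which is spliced to constant exons shared by the whole cluster, whereas the beta genes are single exons. Promoter choice is known to involve CTCF, cohesin and DNA methylation, and the clusters are known targets of repressive histone marks. E2F1 is a transcription factor of the cell cycle. H3K27me3 is the repressive mark that the methyltransferase EZH2 places.

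E2F1 was mapped in 3 groups, untreated, DMSO (the drug solvent, 72 h) and GSK126 (an EZH2 inhibitor, 1 µM, 72 h). H3K27me3 was mapped in 2 groups, control shRNA and shE2F1 (a hairpin that targets E2F1), both delivered by lentivirus for 24 h and followed by 72 h of selection in 2 µg/ml puromycin. Each condition had 1 library, so values are set side by side with no test between conditions, and intervals cover counting error only. An input of untreated cells was not used here. The study asked what EZH2 does in this cancer apart from placing the mark. These libraries bear on its link to E2F1, with E2F1 mapped under EZH2 inhibition and H3K27me3 mapped under E2F1 knockdown. The lists hold no expression values, so neither the knockdown of E2F1 nor the transcription of any protocadherin could be checked in them. The E2F1 lists held 1056, 15703 and 14276 peaks in untreated, DMSO and GSK126 cells, and the H3K27me3 lists 123957 and 135683 peaks in control shRNA and shE2F1 cells.

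A promoter was taken as the 1000 bp on each side of the transcription start site (TSS). All 53 TSSs came from MANE Select transcripts, and no 2 of these windows overlapped, since the closest neighbours lay 3374 bp apart. The clusters are known for a promoter element, the CGCT box. A word that matches its core is shown first because most members carry it. The word GNCGCT on the transcribed strand was found between 250 bases before and 50 bases after the TSS in 48 of 53 members, 90.6%, and in 37.6% of all protein-coding genes in windows of the same length. Within 100 bases upstream of the TSS it was present in 46 members, and in 16.4% of all genes. The word was chosen after the sequences had been seen, and a match is a description of letters, not of a bound site or of the whole box. The PCDHGA12 copy shown lies 33 bases after the TSS. The stretches below were read from GRCh38, plus strand, for 4 alpha, 6 beta and 4 gamma members, with the word in capitals.
PCDHA1 (chr5:140786088-140786113): tggccacatgatGTCGCTgtacacca
PCDHA6 (chr5:140827899-140827924): gagccgcatgatGTCGCTgtctacca
PCDHA13 (chr5:140882064-140882089): catgcgcatggtGTCGCTcttcactg
PCDHAC1 (chr5:140926222-140926247): ctagaaggtgtgGTCGCTcacgttca
PCDHB1 (chr5:141051276-141051301): ctggggagttgaGTCGCTcaatgcaa
PCDHB2 (chr5:141094546-141094571): gagacgcggggtGGCGCTgcagcctt
PCDHB3 (chr5:141100395-141100420): cgaacgcatggtGGCGCTgttgacta
PCDHB4 (chr5:141121725-141121750): aagacgcagggtGGCGCTgcaggcta
PCDHB7 (chr5:141172568-141172593): aaaacgcaaggtGGCGCTgctggcta
PCDHB15 (chr5:141245316-141245341): acaacgcatggtGGCGCTgcaggcta
PCDHGA2 (chr5:141338705-141338730): aggcctctgagcGTCGCTgttgacca
PCDHGA12 (chr5:141430528-141430553): aggactctgagcGCCGCTgttcacca
PCDHGB4 (chr5:141387619-141387644): ctgactctgggcGCCGCTgttggcca
PCDHGC4 (chr5:141484954-141484979): ctgagcccgggaGCCGCTgtctgcca

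The form of the word differed in frequency between the clusters, taking for each member the copy nearest to the usual place. All 13 alpha members with the word had GTCGCT, preceded by gat in 10 of them. Of the 15 beta members 14 had GGCGCT, preceded by ggt in all 14, and the exception was PCDHB1, with GTCGCT. Of the 20 gamma members 13 had GCCGCT, 6 had GTCGCT and 1, PCDHGC3, had GACGCT. The members without the word in this window were PCDHA9, PCDHAC2, PCDHB6, PCDHGB7 and PCDHGC5. Across the windows of 1000 bp on each side, median GC content was 42.7% in members against 56% in all genes, and the observed over expected CpG ratio was 0.60 against 0.64. By cluster the median CpG ratio was 0.71 in alpha, 0.44 in beta and 0.60 in gamma. The E2F word TTNNCGC, with C or G at each N and searched on both strands, occurred in 15 member windows, 28.3%, against 49.1% of all promoters. The CTCF core motif, also on both strands, occurred in 10 member windows, 18.9%, against 11.4%, with 5 of these in alpha, 1 in beta and 4 in gamma.

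E2F1 was not called at any clustered protocadherin promoter. In untreated cells 0 of 53 members had an E2F1 peak at the promoter, against 5.33% of all protein-coding genes. DMSO cells also gave 0 of 53, against 31.3%, and GSK126 cells 0 of 53, against 49.1%. A count of 0 of 53 allows a share of up to 5.66% if promoters are independent, so the absence from the untreated list was within what 53 genes can show. The DMSO and GSK126 shares of all genes lay far above that limit. The members are neighbours in 1 locus, however, and may not count as 53 separate observations. Genes of chromosome 5 as a whole had E2F1 peaks at 5.44%, 32.7% and 51.5% of promoters in the same order, close to the genome. At least 1 of the 3 lists had a peak at 49.5% of all promoters.

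**Figure D1:**
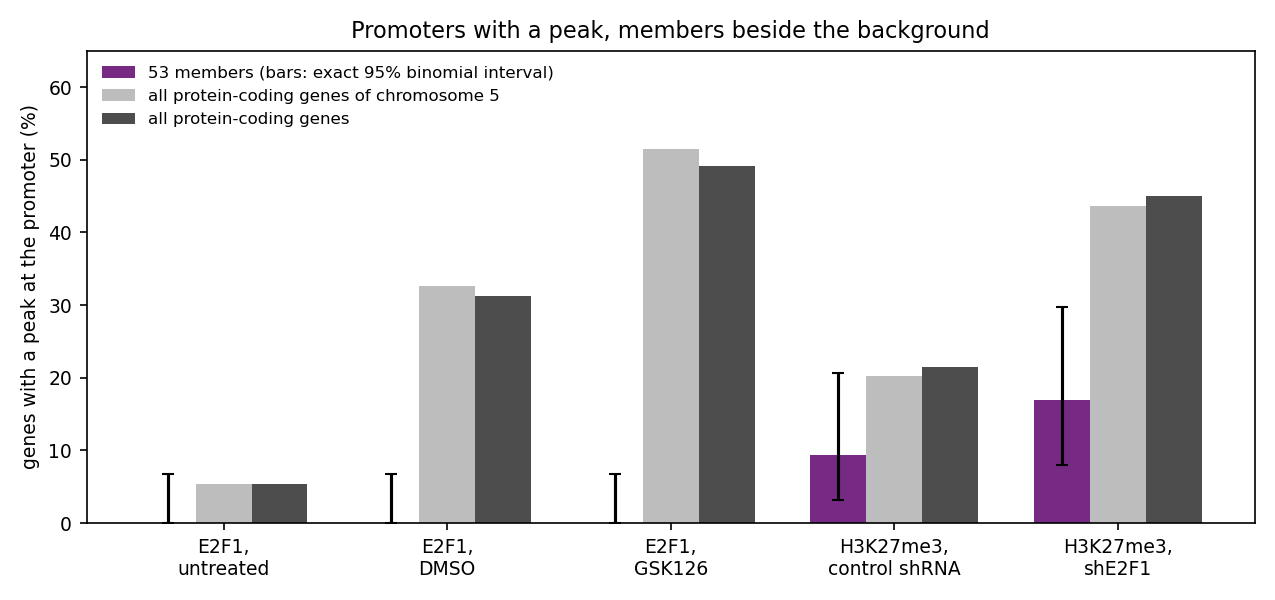
Share of promoters with a peak (%) in each of the 5 lists, for the 53 members, the protein-coding genes of chromosome 5 and all protein-coding genes; error bars on the members are exact 95% binomial intervals. The members were at 0% in the 3 E2F1 lists and below both backgrounds in the 2 H3K27me3 lists.

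One E2F1 peak was listed anywhere between the start of PCDHA1 and the end of the gamma cluster. It came from DMSO cells and lay in the alpha cluster at chr5:140861693-140862010, 318 bp wide, with 4.26-fold enrichment over local background (−log10 q of 3.39). Its summit was 5.99 kb downstream of the PCDHA10 TSS and 7.07 kb upstream of the PCDHA11 TSS, between exons of the member genes. Only exons of the member genes were looked up, so this does not describe the site as free of other protocadherin-like sequence. Whether the peak lies on such sequence, for example a pseudogene copy of a variable exon, was not tested. Solved from the fold and p-value, the summit held 11 fragments over a background of 1.82. That background was the lowest solved in the DMSO list, and the fewest fragments at that level were 9. Of all DMSO peaks 73.6% had a higher −log10 q than this peak. The untreated and GSK126 lists held no peak there. Repeated sequence was counted only in promoter windows, so whether copies elsewhere share reads with this peak was not tested. The 100 bases around the summit were read from GRCh38, chr5:140861834-140861933, plus strand, and are given because this is where E2F1 was called inside the clusters.
DMSO E2F1 peak: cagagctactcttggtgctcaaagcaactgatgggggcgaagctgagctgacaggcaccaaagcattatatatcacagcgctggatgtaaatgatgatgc
The E2F word did not occur within the 318 bp, on either strand, whose GC content was 42.5% with 6 CpG dinucleotides. An H3K27me3 peak of shE2F1 cells overlapped it, at chr5:140860966-140861994.

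The genes on both sides of the clusters did carry E2F1 peaks. On the far side of gamma the nearest E2F1 peak in all 3 lists was at the promoter of DIAPH1, a formin that nucleates actin filaments, about 130 kb beyond the last member TSS. Its fold enrichment was 7.10 in untreated, 9.45 in DMSO and 11.4 in GSK126 cells. On the alpha side the nearest peak was at HARS2, a mitochondrial histidyl-tRNA synthetase, in GSK126 cells, with a fold of 5.08 and 94.6 kb before PCDHA1. In DMSO cells it was at TMCO6, with a fold of 8.05 and 147 kb away, and in untreated cells at MATR3, a nuclear matrix protein, with a fold of 7.56 and 1492 kb away. Leaving aside the DMSO peak near PCDHA10, the stretch free of E2F1 around the members was 2325 kb in untreated, 980 kb in DMSO and 927 kb in GSK126 cells, while the median distance between neighbouring peaks on chromosome 5 was 2325, 39.6 and 102 kb. Stretches at least as long numbered 26 of 51 in the untreated list, 35 of 1172 in DMSO and 32 of 769 in GSK126, so the untreated stretch was of ordinary length for that sparse list. The DMSO stretch leaves out a listed peak, which was not done for the distances it is set beside, so its rank is not like for like.

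The neighbouring genes, defined as every other protein-coding gene with its TSS within 500 kb of the outermost members, numbered 30. Among them 1 had an E2F1 peak at the promoter in the untreated list, 8 in the DMSO list and 18 in the GSK126 list, or 3.33%, 26.7% and 60% against 5.33%, 31.3% and 49.1% of all genes. H3K27me3 was called at 0 of the 30 in control shRNA cells, against 21.5%, and at 9, or 30%, in shE2F1 cells, against 45%. The neighbours, like the members, were thus below the background in both H3K27me3 lists. These are counts of genes, and genes that start close together, such as HDAC3 and RELL2, were counted for the same peak. PCDH1 and PCDH12 are neighbours that are also counted below with the non-clustered protocadherins. TAF7, a subunit of the general transcription factor TFIID, and SLC25A2, a mitochondrial ornithine carrier, lie between the beta and gamma clusters, and neither had a peak in any of the 5 lists.

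H3K27me3 was called at 5 of 53 member promoters in control shRNA cells, 9.43% with an exact 95% interval of 3.13 to 20.7%, against 21.5% of all genes. In shE2F1 cells it was called at 9 of 53, 17.0% with an interval of 8.07 to 29.8%, against 45% of all genes. Chromosome 5 genes stood at 20.3% and 43.7%. Since no member had an E2F1 peak, the 10082 genes without an E2F1 peak at the promoter in any list form a closer background, and 26.1% of these had H3K27me3 in control shRNA and 33.9% in shE2F1 cells. Both member shares were below that background too, and in each library the interval of the members ended below the share of the E2F1-free genes. The interval treats 53 neighbouring promoters as independent, so it may be too narrow and does not establish a difference. With 2000 bp on each side the counts were 8 in control shRNA and 10 in shE2F1 cells, against 25.3% and 49.1% of all genes.

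The members with the mark were the same 4 in both libraries, with 5 more in shE2F1 cells and 1 more in control shRNA cells. PCDHA6, PCDHAC2, PCDHB1 and PCDHB4 were called in both, against 19.5% of all genes. PCDHA13, PCDHB2, PCDHB3, PCDHB5 and PCDHB8 were called in shE2F1 cells alone, 9.43% of members against 25.5% of all genes and 11.3% of genes without E2F1. PCDHB7 was called in control shRNA cells alone, 1.89% of members against 2.05% of all genes. The matching share of genes without E2F1 was 3.46%, so calls in 1 library alone were about as frequent among members as in that background. The remaining 43 members had no call in either library.

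Along the locus the first member with a call was PCDHA6 and the last PCDHB8. Of the 18 members from one to the other 10 had a call, while the 5 before them, PCDHA1 to PCDHA5, and the 30 after them, from PCDHB16 through the beta cluster and all of gamma, had none in either library. These ends were set by the calls themselves and hold for windows of 1000 or 500 bp on each side. With 2000 bp on each side PCDHAC1, PCDHB16 and PCDHGA2 were added in control shRNA cells and PCDHA2 in shE2F1 cells, so that 1 member before the block and 2 after it were then called. By cluster the counts were 2 of 15 alpha, 3 of 16 beta and 0 of 22 gamma promoters in control shRNA cells, and 3, 6 and 0 in shE2F1 cells. A count of 0 of 22 would allow a share of up to 13.6% if promoters were independent, beside 26.1% and 33.9% of genes without E2F1. The gamma promoters are adjacent, and in shE2F1 cells all 22 lay in 1 stretch without a peak. The limit therefore cannot place gamma below that background. The 0 in control shRNA cells also became 1, at PCDHGA2, with the wider window. In the beta cluster 7 of the 8 genes from PCDHB1 to PCDHB8 had the mark in at least 1 library, the exception being PCDHB6, and 0 of the 8 from PCDHB16 to PCDHB15 did. With the wider window PCDHB16 was called in control shRNA cells, which made 1 of these last 8. This break was noticed in the data and was not tested.

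**Figure D2:**
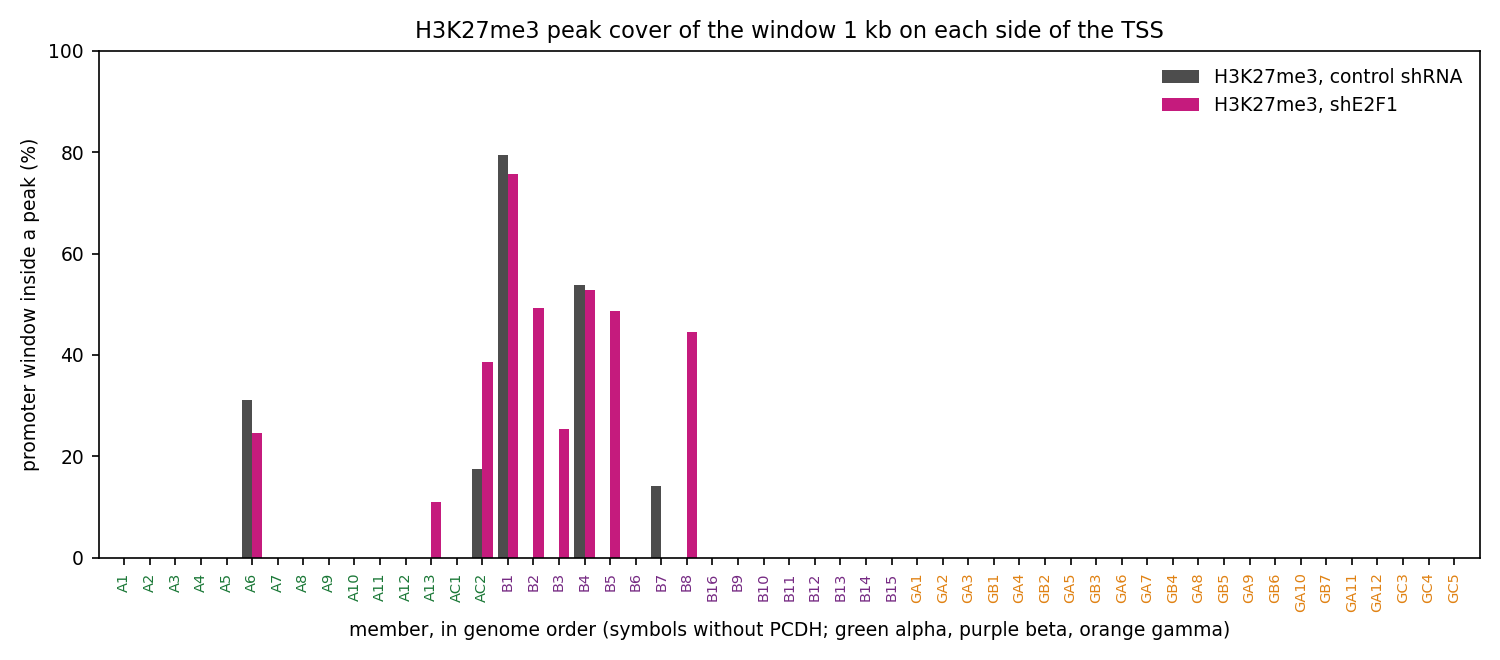
Percent of each member's promoter window (1 kb on each side of the TSS) inside an H3K27me3 peak, in genome order, for control shRNA and shE2F1 cells. PCDHB1 and PCDHB4 had the widest cover in both libraries, and no member after PCDHB8 had any within this window.

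PCDHB1, a beta gene that stands apart at the alpha end of its cluster, was the most covered member in both libraries. Its peak in control shRNA cells was 2695 bp wide at 3.57-fold (−log10 q of 2.37), and its peak in shE2F1 cells 3024 bp wide at 3.37-fold (−log10 q of 2.26). These filled 79.4% and 75.8% of the promoter window, so cover was nearly alike in the 2 libraries. The RefSeq promoter of PCDHB1 (GRCh38, chr5:141051124-141051423, plus strand, ending 50 bases into the gene) is printed because it lay inside both peaks, with the GNCGCT word in capitals.
PCDHB1: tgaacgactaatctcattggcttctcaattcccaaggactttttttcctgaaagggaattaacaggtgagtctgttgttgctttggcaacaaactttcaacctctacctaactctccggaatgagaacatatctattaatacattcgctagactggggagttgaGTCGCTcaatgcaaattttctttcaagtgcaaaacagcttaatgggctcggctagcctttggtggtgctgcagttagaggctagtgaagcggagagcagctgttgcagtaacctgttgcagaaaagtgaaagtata

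PCDHB4 came next in control shRNA cells, with a peak of 1078 bp, a fold of 3.28 and 53.9% of the window. In shE2F1 cells its peak was 1577 bp wide with a fold of 3.13, and it filled 52.8%. PCDHA6 had a peak of 624 bp with a fold of 3.43 in control shRNA cells and of 494 bp with a fold of 3.01 in shE2F1 cells, or 31.2% and 24.7% of the window. For PCDHB1, PCDHB4 and PCDHA6, then, shE2F1 cells showed slightly less cover of the promoter window and a slightly lower fold. The PCDHB1 and PCDHB4 peaks themselves were wider in shE2F1 cells. Median fold of the peaks at all promoters was also lower in shE2F1 cells, 3.16 against 3.26 in control shRNA cells.

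PCDHAC2 differed, with 17.6% of the window covered in control shRNA cells and 38.6% in shE2F1 cells. In control shRNA cells its peak was 352 bp wide with a fold of 4.18 and lay wholly before the TSS. In shE2F1 cells a peak of 1784 bp with a fold of 3.20 also ended before the TSS, and a second of 1918 bp with a fold of 2.64 began 864 bp after it. The TSS itself was in no peak in either library. PCDHAC2 is a C-type gene, one of the 5 members at the ends of the alpha and gamma clusters whose promoters are not subject to the random choice of the others. The other C-type genes, PCDHAC1, PCDHGC3, PCDHGC4 and PCDHGC5, had 0% of the window covered in both libraries. Median GC content of the C-type windows was 52.4%, against 42.5% in the other members.

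The promoters called in shE2F1 cells alone had peaks of 221 to 1108 bp, beside a median of 677 bp for shE2F1 peaks at all promoters. PCDHB2 had 49.2% of its window in a peak of 1108 bp with a fold of 2.91. PCDHB5 had 48.7% in a peak of 974 bp that began 1 bp after the TSS, and PCDHB8 44.6% in a peak of 892 bp with a fold of 2.78. PCDHB3 had 25.4% in a peak of 508 bp with a fold of 2.66. PCDHA13 had the narrowest of these peaks, 221 bp with a fold of 2.71, over its TSS. PCDHB7, called in control shRNA cells alone, had 14.2% in a peak of 284 bp with a fold of 3.02. All 6 had a −log10 q below 2, so each difference between the libraries rests on peaks near the calling limit. The PCDHB8 window also shares sequence with PCDHB13, and 38.7% of the 50-base words of each were found again in the locus. Reads from such copies can be lost or shared, and PCDHB13 had no peak.

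Over all members, repeated sequence was limited. The median share of 50-base words of the promoter window found again anywhere in the locus was 0.256%, and 6 members were above 20%, namely PCDHA7, PCDHA9, PCDHB8, PCDHB13, PCDHGB4 and PCDHGB5. The median over gamma was 0%. Copies outside the locus were not counted, and the part of repeated sequence in any call was not tested.

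The peaks at member promoters lay mostly over the first exon and less often over the TSS itself. In control shRNA cells 2 of the 5 peaks covered the TSS, and in shE2F1 cells 4 of 10. Counted by position, the share of members inside a peak was highest 300 bp downstream of the TSS in control shRNA cells, at 7.55%, and 200 bp downstream in shE2F1 cells, at 15.1%. Over all protein-coding genes it was highest at the TSS, at 11.5% and 30.6%. In shE2F1 cells the mean share over the 1 kb downstream was 11.3% in members against 2.45% over the 1 kb upstream, while in all genes these were 16.3% and 15.1%. The member values rest on 5 and 10 peaks.

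**Figure D3:**
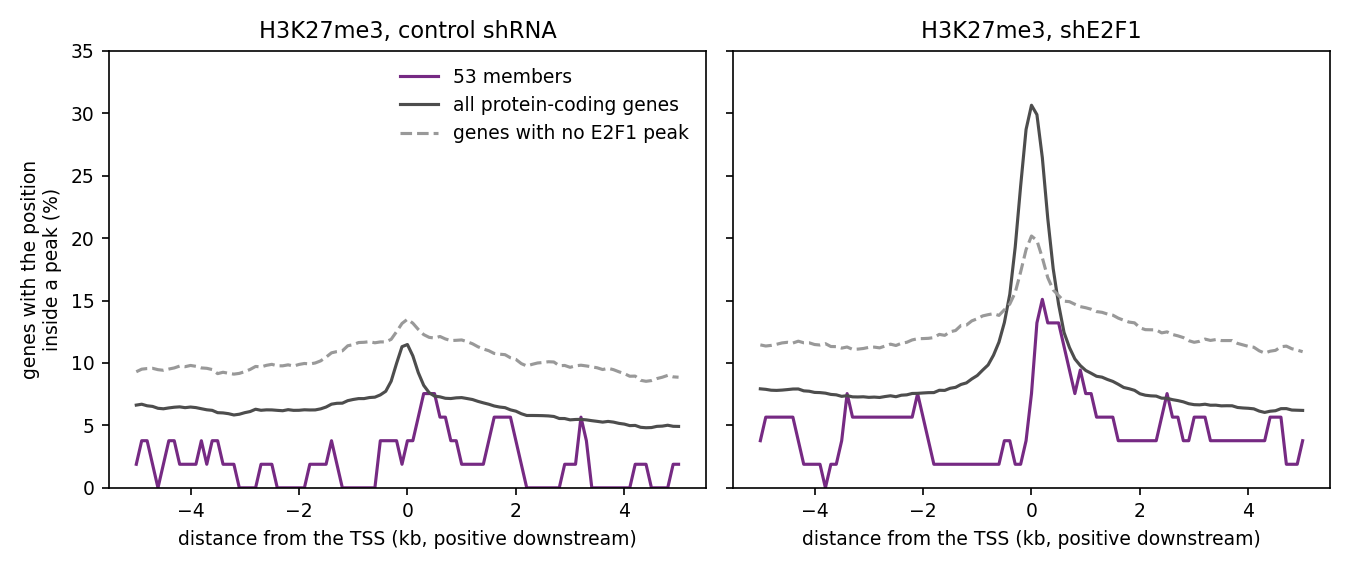
Percent of genes with a given position inside an H3K27me3 peak, by distance from the TSS (kb), for the 53 members, all protein-coding genes and the genes with no E2F1 peak at the promoter. The members peaked just downstream of the TSS at 7.55% and 15.1%, and the curve of all genes peaked at the TSS at 11.5% and 30.6%.

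Beyond promoters, H3K27me3 peaks covered 3.65% of the locus in control shRNA and 7.82% in shE2F1 cells, in 39 and 55 peaks. Chromosome 5 as a whole was covered to 5.58% and 6.80%, and the autosomes and X to 4.92% and 6.14%. The alpha cluster went from 5.81% to 12.4% and the beta cluster from 5.06% to 10.0%, ratios of 2.14 and 1.98, against 1.22 for chromosome 5. The gamma cluster was at 0.371% in control shRNA and 0% in shE2F1 cells. These sums move with how much was called in each library, and with 1 library each the depth of the libraries and the shRNA cannot be told apart. Median peak width in the locus was 502 bp in control shRNA and 790 bp in shE2F1 cells, and median fold 3.27 and 2.95.

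**Figure D4:**
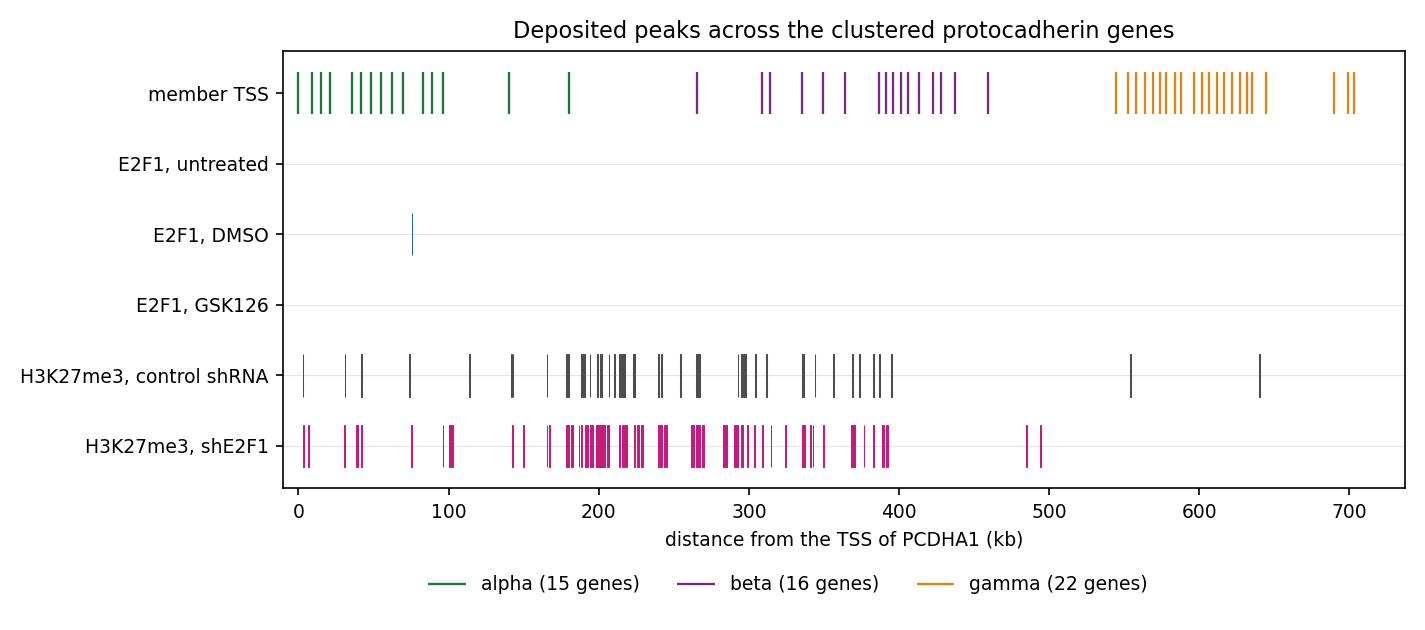
Peaks of the 5 lists along the locus, by distance from the PCDHA1 TSS (kb), with the member TSSs above, coloured by cluster. H3K27me3 peaks were densest from the end of alpha to the middle of beta, E2F1 had 1 peak, in DMSO cells, and gamma held 2 H3K27me3 peaks, both in control shRNA cells.

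Within alpha the mark was densest over the end of the cluster, from PCDHAC2 through the constant exons. That stretch of 45.9 kb was covered to 20.4% in control shRNA and 40.1% in shE2F1 cells. From PCDHA1 to PCDHAC1, which holds the 13 alternate promoters, cover was 1.44% and 4.37%, and from PCDHAC1 to PCDHAC2 it was 4.39% and 9.02%. The widest alpha peaks lay in the dense stretch, 6288 bp at chr5:140984193-140990480 in shE2F1 cells, with a fold of 3.44, and 1838 bp at chr5:141001747-141003584 in control shRNA cells, with a fold of 2.75. The 6288 bp peak overlapped control shRNA peaks of 614 and 1623 bp. The 39.0 kb between alpha and beta followed, at 6.95% and 19.5%.

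In beta the widest peak of each library was the one at PCDHB1. The 131 kb from PCDHB1 to the PCDHB16 TSS was covered to 7.64% in control shRNA and 15.1% in shE2F1 cells, and the 67.0 kb from PCDHB16 to the end of the cluster to 0% in both. Not all beta peaks were at promoters, and the highest −log10 q in beta was 2.74, in shE2F1 cells at chr5:141068751-141070006, between PCDHB1 and PCDHB2. Median CpG ratio was 0.50 over the windows of PCDHB1 to PCDHB8 and 0.35 over those of PCDHB16 to PCDHB15, and GC content 42.7% and 41.6%. The part of base composition in the break was not tested.

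Gamma held 2 peaks in all, both in control shRNA cells. The wider, 467 bp at chr5:141340210-141340676 with a fold of 3.27, lay within the variable exon of PCDHGA2, 1.68 kb downstream of its TSS. The other, 210 bp at chr5:141426068-141426277 with a fold of 2.83, lay upstream of PCDHGA12. In shE2F1 cells no peak lay for 356 kb around all 22 gamma members, from chr5:141280928 to chr5:141636650, and 84 of 8971 distances between neighbouring peaks on chromosome 5, 0.936%, were as long. In control shRNA cells the gamma peaks left stretches of 159 kb from after PCDHB8 to PCDHGA2, which 2.46% of distances reached, and of 85.4 kb between them, which 3.79% reached.

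**Figure D5:**
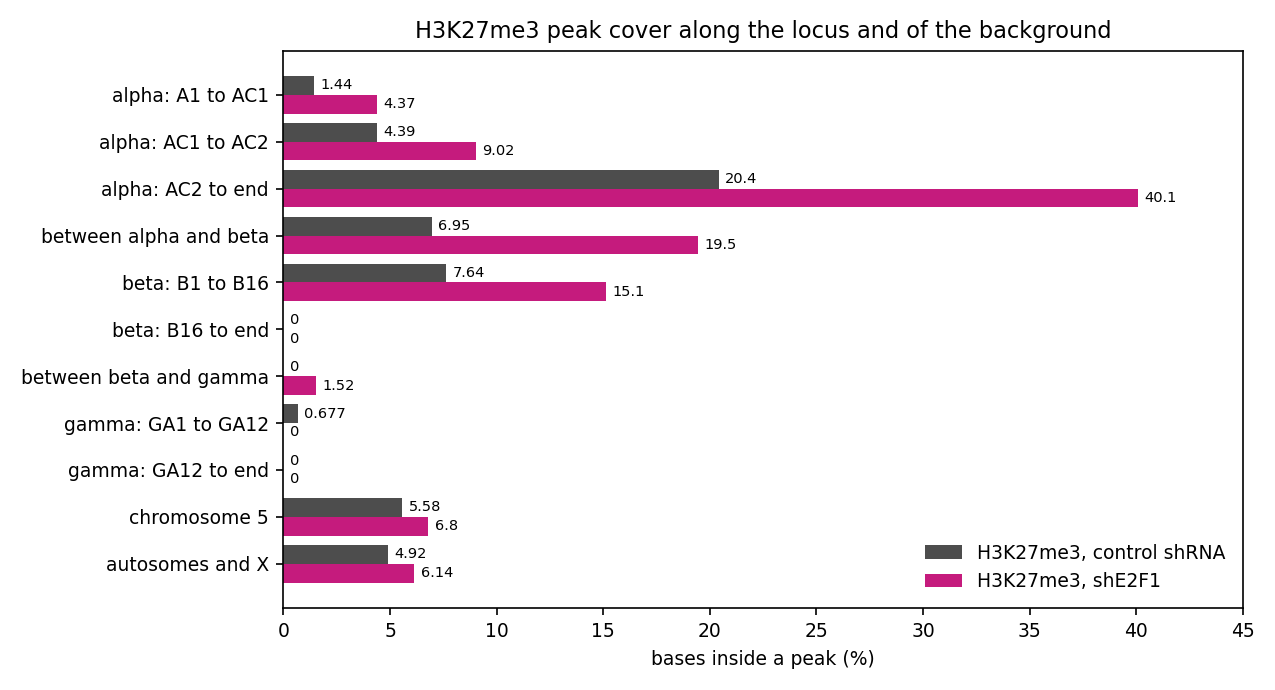
Percent of bases inside an H3K27me3 peak for consecutive stretches of the locus, for chromosome 5 and for the autosomes and X, in control shRNA and shE2F1 cells. The stretch from PCDHAC2 to the end of alpha reached 20.4% and 40.1%, and the stretches from PCDHB16 onward stayed at or below 1.52%.

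The libraries shared a smaller part of their called bases in the locus than over the autosomes and X. In the locus shE2F1 peaks covered 56814 bp and control shRNA peaks 26550 bp, so not all shE2F1 bases could be shared. Of the bases under control shRNA peaks in the locus 49.5% were also under shE2F1 peaks, and of those under shE2F1 peaks 23.1% were under control shRNA peaks, while over the autosomes and X the shares were 61.0% and 48.9%. Of 39 control shRNA peaks 23 overlapped an shE2F1 peak, and of 55 shE2F1 peaks 21 overlapped a control shRNA peak. In gamma 0 of the 2 control shRNA peaks had a partner. In strength the locus peaks resembled the lists they came from, with a median fold of 3.27 against 3.17 over the whole list in control shRNA cells and 2.95 against 2.95 in shE2F1 cells. The highest −log10 q in the locus was 2.90 in control shRNA cells, at PCDHAC2, and 2.89 in shE2F1 cells, 3.36 kb downstream of the PCDHA1 TSS. Of the whole lists 3.36% and 3.45% of peaks were higher. Peaks of −log10 q of at least 2 numbered 13 in control shRNA and 11 in shE2F1 cells, 33.3% and 20% of the locus peaks against 26.1% and 18.6% of the lists. None reached 5, a level met by 0.377% and 1.2% of the lists, so 0 among 39 and 55 peaks is near the background. At member promoters that threshold of 2 left 2 calls in control shRNA cells, at PCDHAC2 and PCDHB1, and 1 in shE2F1 cells, at PCDHB1, against 11.1% and 25.3% of all genes. A −log10 q of at least 5 left 0, against 2.4% and 8.52%.

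Among 13 genes that regulate clustered protocadherin promoters, which comprised CTCF, cohesin subunits, their loader and their releaser, SMCHD1, DNA methyltransferases and SETDB1, E2F1 peaks were at 7 promoters in the untreated list, 10 in the DMSO list and 11 in the GSK126 list, or 53.8%, 76.9% and 84.6% against 5.33%, 31.3% and 49.1% of all genes. CTCF, the factor that anchors promoter and enhancer loops in these clusters, had folds of 5.23, 13.6 and 33.5 in that order. SMC1A, a core cohesin subunit, had folds of 14.4, 35.3 and 66.5, and SMC3, its partner, 7.13, 18.6 and 38.0. STAG1, another cohesin subunit, had 9.84, 18.6 and 28.6, and WAPL, which releases cohesin, 8.12, 6.86 and 13.2. DNMT1, the maintenance DNA methyltransferase, had 10.7, 22.9 and 36.5. SMCHD1, a chromatin protein needed for silencing of these clusters, had 13.2, 9.78 and 18.4. These 7 were named for their untreated peak, and folds of different libraries are not on a common scale. H3K27me3 was called at 2 of the 13 promoters in control shRNA and 9 in shE2F1 cells, 15.4% and 69.2% against 21.5% and 45% of all genes.

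The non-clustered protocadherins, 11 related genes scattered over the genome, had E2F1 peaks at 0, 2 and 1 promoters in untreated, DMSO and GSK126 cells and H3K27me3 at 4 in each H3K27me3 library. That is 0%, 18.2% and 9.09% for E2F1 against 5.33%, 31.3% and 49.1% of all genes, and 36.4% for H3K27me3 against 21.5% and 45%. Of 10 cytoplasmic partners and signalling genes of protocadherins, 1, 4 and 7 had E2F1 and 2 and 4 had H3K27me3, which is 10%, 40% and 70% and then 20% and 40%, against the same shares of all genes. NCKAP1, a subunit of the actin-regulating WAVE complex, was the partner with E2F1 in untreated cells, with folds of 6.60, 6.17 and 10.9 in the 3 lists. E2F1 was also rare in 2 other gene families, examined after the data had been seen. HOX genes had it at 0, 0 and 3 of 39 promoters, and olfactory receptor genes of chromosome 11 at 0, 5 and 4 of 178, in the same order, so a near absence of E2F1 peaks was not particular to the clustered protocadherins. H3K27me3 was called at 7 of the 39 HOX promoters in each library, 17.9% against 21.5% and 45% of all genes. Shares below the background in both H3K27me3 lists were thus not particular to the members either. The olfactory receptor genes stood at 29.2% in control shRNA and 33.7% in shE2F1 cells.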

How the data were processed

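Per the study's methods, chromatin was sonicated for E2F1 and digested with micrococcal nuclease for H3K27me3, while the labels name sonication for every sample. Per the submitters' processing notes and the methods, the authors checked reads with FastQC 0.11.5, trimmed them with cutadapt 4.5, aligned them to GRCh38 with Bowtie2 2.5.2, filtered them with Picard and SAMtools and ran MACS2 2.2.9.1 on each library, at a q of 0.01 in narrow mode for E2F1 and with a broad cutoff of 0.1 for H3K27me3. For each peak the deposited lists give a fold enrichment over local background, −log10 p and −log10 q values and a score (the last not used), at the summit for narrow peaks and averaged over the peak for broad ones. Narrow lists also give the summit offset. They hold no read totals, so depth is unknown.

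A peak counted at a promoter from 1 bp of overlap with the 2001 bp window. Cover is the percent of bases outside assembly gaps inside a peak. Fragments at E2F1 summits were solved from fold and p with MACS2's Poisson formula. The solver was run on data simulated with the same formula, which checks its arithmetic but not how the deposited values were made. Shares carry exact Clopper-Pearson 95% intervals, and a count of 0 a limit of 3 counts. Both treat promoters as independent, which neighbours in 1 locus need not be. Each condition had 1 library, so no test was run between conditions. RefSeq promoters matched 47 of 53 members. Python 3.11.15, pandas 2.3.3 and scipy 1.17.1 were used.

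The members and lists were chosen with earlier results of these data known. Named with values were members with an E2F1 peak at the promoter, C-type members, the 3 members per cluster with most promoter cover, members called in 1 H3K27me3 library, the widest peak per cluster, listed genes with an untreated E2F1 peak, TAF7 and SLC25A2. Other genes, such as those next to the E2F1-free stretch, were named after their values were seen. Alternatives were other window widths, summit or midpoint overlap, −log10 q of at least 2 or 5, other TSS choices and other cluster spans.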

Additional observations from a re-analysis of the deposited data

How the results depend on the processing

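E2F1 counts at member promoters were 0 in all 3 lists under every alternative run. The narrower window, summit overlap and stricter −log10 q can only remove calls. Only the wider window and the other TSS choices could therefore have changed these counts. Windows of 2000 bp on each side raised the H3K27me3 count in control shRNA cells from 5 to 8 and the count in control shRNA cells alone from 1 to 4, by adding PCDHAC1, PCDHB16 and PCDHGA2, and midpoints raised the latter to 2. A −log10 q of at least 2 left 2 members in control shRNA, 1 in shE2F1 and 0 in shE2F1 cells alone, so the order of the libraries at promoters turned at that threshold. It left cover of 1.85% and 4.26% in alpha, 1.77% and 2.05% in beta and 0% in gamma in control shRNA cells. A −log10 q of at least 5 left 0 members in each of the H3K27me3 counts and 0% of each cluster. Taking the variable region alone gave alpha cover of 2.05% in control shRNA and 5.91% in shE2F1 cells, since the densely covered end of alpha is then left out. In all, 22 of the values under alternatives moved and 45 did not, the latter including E2F1 counts of 0 that could not have changed. No paired analysis was possible because each condition had 1 library. Peak lists give no value below their threshold, so weaker signal at the uncalled members was not detectable here.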
